A study of Mus musculus with 4 samples.

Results

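Insulin-like growth factor (IGF) genes and the noncoding RNA H19 were followed through the differentiation of cultured mouse muscle cells. The 10 genes were chosen by name from the 32285 in the files: the ligands Igf1 and Igf2, H19, the receptors Igf1r and Igf2r, and the binding proteins Igfbp2, Igfbp3, Igfbp4, Igfbp5 and Igfbp7. Each was found once, by its symbol, and each was above the limit of 50 unique molecular identifiers (UMIs) in a file that was set for counting changes. All cells belonged to 1 group. They were muscle stem cells from skeletal muscle of MyoD-KI mice, kept for 5 days in growth medium with serum and Ultraser G, and sorted for a high MyoD-tdTomato signal before 10x Genomics single-cell library preparation with a 3-prime v3.1 kit. MyoD drives cells towards the muscle fate, and the red fluorescence of tdTomato serves as its reporter here. The sort fixes the population: cells of low reporter signal were not analysed here, the age and number of the mice are not given in the sources used here, and there is no control genotype. A culture also lacks the blood supply and the neighbouring cells of muscle.

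IGF1 and IGF2 are secreted growth factors. They signal through the tyrosine kinase receptor encoded by Igf1r, whereas the Igf2r product, the cation-independent mannose 6-phosphate receptor, binds IGF2 and carries it to lysosomes. IGF-binding proteins hold the ligands outside the cell and can limit or extend their action. Igfbp7 encodes a relative with weaker IGF binding. In muscle, IGF2 made by differentiating myoblasts acts on the cells that make it, and IGF signalling has roles in both proliferation and differentiation. H19 and Igf2 are neighbours on mouse chromosome 7 and are imprinted: H19 is expressed from the maternal and Igf2 from the paternal allele, under a shared control region. Igf2r is imprinted too, with Airn as the noncoding RNA transcribed across it from the other strand.

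H19 is also the host of a microRNA, which is shown here because H19 was the most abundant of the 10 genes. RefSeq (GRCm38.p6) places both mature products on the minus strand of chromosome 7, at 142577112 to 142577133 (5p) and 142577078 to 142577099 (3p), inside H19 and in an exon of 3 of its 7 annotated transcripts. Capitals mark the seed, bases 2 to 8. The mature microRNAs themselves are not measured by a library of polyadenylated RNA.
miR-675-5p: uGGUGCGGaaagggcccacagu
miR-675-3p: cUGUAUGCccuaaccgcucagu

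Promoter sequence is shown for some of the members with opposite courses with Myog: Igf2r was higher, and Igfbp5, Igfbp7 and Igf1r lower, in cells with more Myog. Each line gives the 120 bases before the RefSeq start on GRCm38.p6, and capitals mark CANNTG, the general E-box that muscle regulatory factors and many other proteins can bind. CANNTG reads alike on both strands. Within 250 bases before the start, Igf2r had 4 matches, Igfbp5 had 1, and Igfbp7 and Igf1r had 0. Igf1 and Igf2, also higher with Myog and not shown, had 1 match and, at the 4 starts of Igf2, 2, 0, 0 and 0. Igf1, higher with Myog, and Igfbp5, lower with Myog, thus had 1 match each. Whether matches go with the direction of the courses was not tested, and these genes are too few to tell. Of 32851 promoter windows of 250 bases, 66.2% held at least 1 CANNTG and 3.84% held 4 or more. The stricter form CAGCTG, a subset of CANNTG, was in 13% of all windows and, among the members, in that of Igf1 only. Of the 10 members, all but H19 had RefSeq promoter entries, with 4 starts for Igf2 and 2 for Igfbp2. A match is a description of the letters and says nothing of binding.
Igf2r promoter (chr17:12769707-12769826, minus strand): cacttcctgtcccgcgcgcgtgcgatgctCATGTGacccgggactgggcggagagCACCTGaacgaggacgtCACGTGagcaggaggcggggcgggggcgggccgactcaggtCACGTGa
Igfbp5 promoter (chr1:72874866-72874985, minus strand): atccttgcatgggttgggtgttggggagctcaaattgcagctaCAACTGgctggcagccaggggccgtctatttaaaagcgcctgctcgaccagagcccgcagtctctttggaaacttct
Igfbp7 promoter (chr5:77408046-77408165, minus strand): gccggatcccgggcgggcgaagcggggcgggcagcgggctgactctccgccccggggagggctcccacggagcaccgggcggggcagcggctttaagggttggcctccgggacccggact
Igf1r promoter (chr7:67952137-67952256, plus strand): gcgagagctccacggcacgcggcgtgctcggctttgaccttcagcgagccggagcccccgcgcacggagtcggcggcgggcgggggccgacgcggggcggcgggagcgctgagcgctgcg

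The 4 samples carry replicate numbers, but their files held the same cells. Pairs of files shared 5946 to 5965 barcodes, at least 99.88% of the smaller file, and between 98.87% and 99.16% of cells resembled the same barcode in the other file more than any of 100 other barcodes. All 4 files therefore count as a single sample (n = 1), values were computed per file and averaged, and differences between files show only the repeatability of library sampling. No test between groups of cells was possible, and no p-value is given. The 4 files held 62627341 to 68898900 UMIs each. Of 5944 barcodes in all files, 5481 were kept (at least 1000 genes and under 10% mitochondrial UMIs), with a median of 11049 UMIs. Levels are UMIs per 1000000 (CPM), and intervals are exact 95% intervals at the mean count of 1 file, which cover counting error only. The label of the cells was checked against markers: Myod1 stood at 507 CPM and Des, the muscle intermediate filament gene, at 1165 CPM. The other myoblast markers, Ncam1 and Cdh15, were at 1394 and 79.5 CPM. The 12 myocyte markers lay between 44.6 CPM (Ckm) and 2898 CPM (Ttn), with Acta1 at 2134 and Myog at 1803. Of 7 markers of muscle stem or progenitor cells, Pax7 was at 57.1 CPM, Sdc4 at 54.4, Myf5 at 54.2, Itga7 at 49.7 and Vcam1 at 17.04, while Cd34 and Calcr were at 0.253 and 0.262 CPM. Of the defining markers of other types, Pdgfra (fibroblast) was at 0.499 CPM, Kdr (endothelial) at 0.00404 CPM and Ptprc (immune) at 0.0270 CPM. Other genes of these lists were higher, with Col3a1 at 110.5 and Ly6a at 29.6 CPM (fibroblast). Pecam1 and Tek (endothelial) were at 0.939 and 0.869 CPM and Cd68 (immune) at 0.732. In the pericyte or smooth muscle list, Acta2 was at 1425 and Notch3 at 50.3 CPM, while Rgs5, Pdgfrb and Myh11 were at 5.25, 4.59 and 0.302. Myoblast and myocyte genes were thus expressed at high levels, but single genes of other lists were too. The markers alone therefore do not settle the label of every cell.

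The first question was how much of each component the cells expressed. H19 led with 1701 CPM (1691 to 1711), the 108th highest of all genes, and Igf2 followed at 295 CPM (291 to 299), the 476th. The receptors and Igfbp7 formed a middle group: Igf1r had 137 CPM (135 to 140), Igfbp7 had 100.1 (97.7 to 102) and Igf2r had 97.0 (94.7 to 99.4). The remaining binding proteins and the ligand Igf1 lay below these. Igfbp5 stood at 59.7 CPM (57.8 to 61.6), Igfbp3 at 35.3 (33.9 to 36.7) and Igf1 at 18.2 (17.2 to 19.2). Igfbp4 at 8.23 CPM (7.55 to 8.95) and Igfbp2 at 4.38 (3.89 to 4.92) were the lowest. The intervals of Igfbp7 and Igf2r overlap, so their order is not settled, while all other neighbours in this order have intervals apart. H19 thus exceeded Igf2 by 5.77 times in UMIs. The CPM scale counts molecules and is not divided by gene length. Whether intronic reads were counted is not given in the sources used here, and such reads would raise the long genes Igf1r, Igf1 and Igf2r. Per file, H19 gave 1700, 1708, 1698 and 1696 CPM and Igf2 gave 293, 296, 296 and 295 CPM, so the files scarcely differed.

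Detection per cell was read at equal depth. After thinning every cell to 5000 UMIs, which 5197 cells had in all files, an H19 UMI was found in 98.0% of cells, an Igf2 UMI in 63.6%, Igf1r in 43.1%, Igf2r in 35.3% and Igfbp7 in 30.1%. Without thinning the shares were 98.9%, 79.9%, 63.9%, 58.2% and 46.8%. Igfbp5 was found in 15.5% of thinned cells, Igfbp3 in 13.6%, Igf1 in 7.5%, Igfbp4 in 3.64% and Igfbp2 in 1.88%. Igfbp5 was the most concentrated: the tenth of cells with most Igfbp5 in 1 file held 60.3% of its UMIs in another. That share was 44.7% for Igf1, 43.2% for Igfbp4, 40.2% for Igfbp7, 24.97% for Igf2 and 18.1% for H19. Free RNA in the droplets can give single UMIs to cells that lack a gene, and no cell type without these genes was present as a reference, so its part in the shares was not tested.

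Cells were then arranged by Myog, the transcription factor gene that marks the onset of muscle differentiation, in 4 bins: under 100 CPM (1875 cells), 100 to 1000 (1048), 1000 to 4000 (1469) and at least 4000 (1089). Between the outer bins, Igf1, Igf2 and Igf2r were higher in Myog-rich cells, and Igf1r, Igfbp5 and Igfbp7 were lower. A gene counted as changed at a log2 ratio of CPM plus 1 of at least 1 in size, so 3 of 10 members were higher and 3 lower, where 8.32% of 12069 genes were higher and 26.5% lower. The median log2 ratio was -0.12 over the members and -0.40 over all genes. Contractile and mitochondrial genes took 9.76% of UMIs in Myog-rich cells and 3.83% in Myog-poor cells, and a scaling by median ratios moved the median of all genes to 0.00. Under that scaling 1530 genes were higher and 2151 lower, against 1004 and 3194 on the CPM scale, and 4 members were higher and 2 lower. Log2 ratios below are on the CPM scale, to be read against the median of -0.40.

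**Figure D1:**
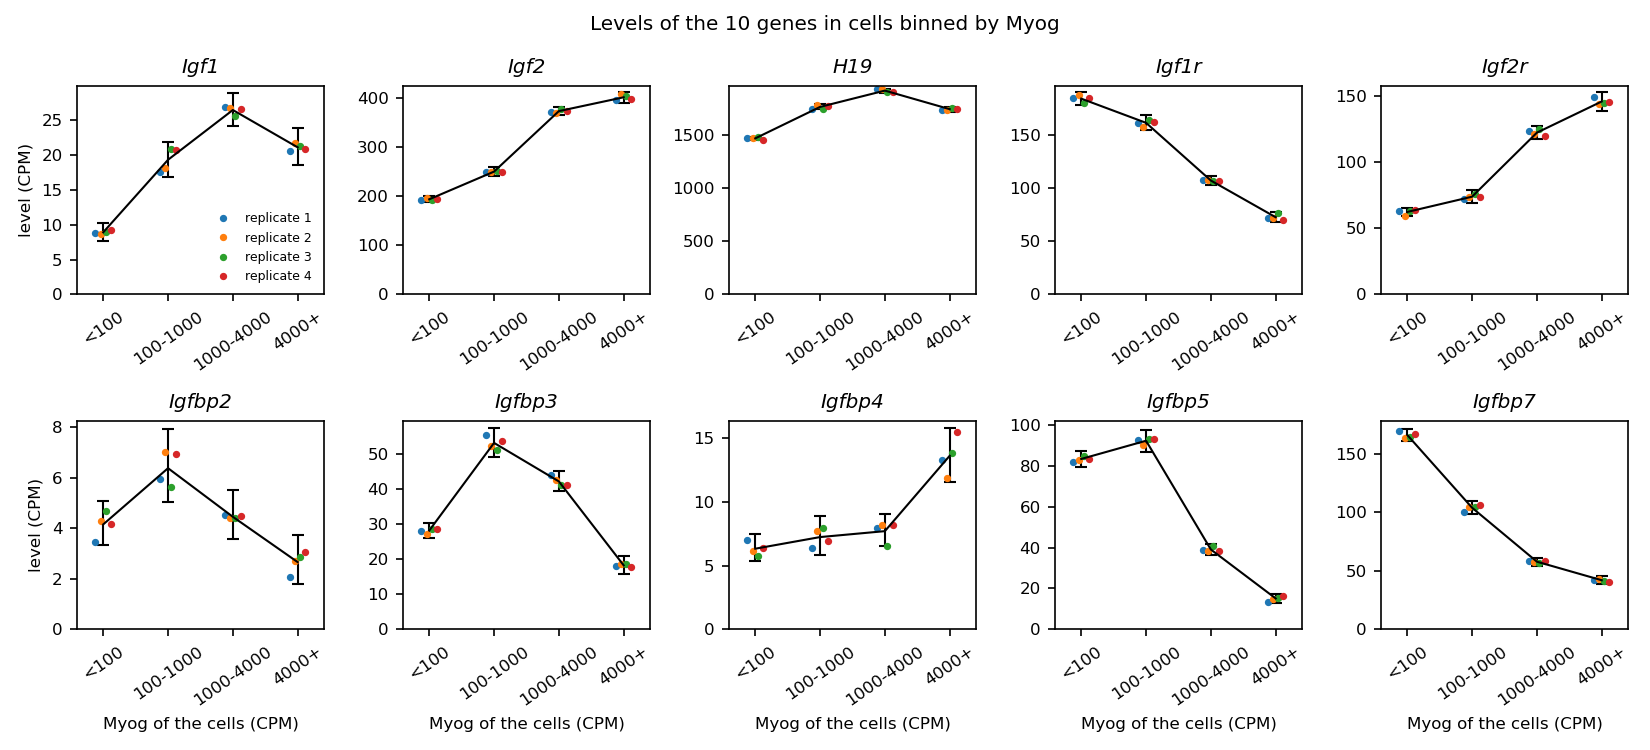
Levels of the 10 genes (CPM, vertical axes from 0) in cells binned by Myog (CPM, horizontal). Points are the 4 files, lines join their means, and bars are 95% Poisson intervals for counting error. Igf2 and Igf2r climbed over the bins to 402 and 146 CPM, Igf1r and Igfbp7 declined to 72.8 and 42.0 CPM, and Igfbp3 was highest at 53.3 CPM in the second bin.

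Among the ligands, Igf2 had 194 CPM (files 193, 197, 192 and 194) in the lowest Myog bin, 250.3 in the next, 374 in the third and 402 (files 396, 408, 404 and 399) in the highest. Every file of the highest bin lay above every file of the lowest. The log2 ratio of the outer bins was 1.05, with an interval of 0.99 to 1.11 that reaches below the threshold of 1, and the share of thinned cells with Igf2 went from 49.0% to 78.1%. Averaging CPM over cells in place of summing UMIs gave a log2 ratio of 0.80, short of the threshold. Igf1 was scarcer, with 8.89 CPM (files 8.78, 8.62, 8.98 and 9.20) in the lowest bin and 21.1 (files 20.5, 21.7, 21.2 and 20.8) in the highest. Its level was greatest in the third bin at 26.4 CPM, with an interval of 24.2 to 28.8 that lies above that of the highest bin, 18.5 to 23.8. The log2 ratio of the outer bins for Igf1 was 1.16 (0.90 to 1.41), and 0.81 when CPM were averaged over cells.

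H19 was the flattest member on the CPM scale. It had 1464 CPM (files 1465, 1466, 1473 and 1451) in the lowest Myog bin, 1759 and 1912 in the middle bins and 1738 (files 1733, 1734, 1748 and 1739) in the highest. The outer bins differed by a log2 ratio of 0.25 (0.22 to 0.27), which is beyond the counting error and well short of the threshold. Median-ratio scaling brought it to 0.69, further from 0 than Igfbp2 at -0.16 and Igfbp3 at -0.18, so this ranking rests on the scale. In the lowest bin 95.02% of thinned cells had an H19 UMI, and in the other bins 99.2% to 99.7% had one.

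The receptors took opposite courses. Igf1r, the signalling receptor, had 185 CPM (files 185, 188, 181 and 185) in the lowest Myog bin, then 162 and 107, and 72.8 (files 72.1, 72.4, 76.9 and 69.8) in the highest. All files of the highest bin lay below all of the lowest. The log2 ratio was -1.33 (-1.44 to -1.23), and the share of thinned cells with an Igf1r UMI went from 54.4% to 27.9%. Median-ratio scaling brought it to -0.90, short of the threshold, so the size of this difference rests on the scale. Igf2r, the clearance receptor for IGF2, had 62.2 CPM (files 63.0, 58.9, 63.0 and 64.0) in the lowest bin, 73.7 and 122 in the middle bins, and 146 (files 149, 144, 144 and 145) in the highest. Its log2 ratio was 1.21 (1.11 to 1.32), with no overlap between the files of the outer bins. Igf1r UMIs outnumbered those of Igf2r in the lowest bin, and Igf2r UMIs outnumbered those of Igf1r in the upper bins, from 1000 CPM of Myog on.

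Airn, the noncoding RNA on the opposite strand of Igf2r, was named after its values were seen because its counts could mix with those of Igf2r if strand was ignored in counting. Whether strand was used is not given in the sources used here. Airn was the more abundant, at 385 CPM over all cells, and went from 204 CPM in the lowest Myog bin through 295 and 512 to 610 CPM in the highest, a log2 ratio of 1.58. The Airn and Igf2r levels therefore climbed over the same bins. Across cells, the Igf2r counts of 1 file and the Airn counts of another had a mean r of 0.28, against 0.24 for Igf2r with itself between files. These coefficients are over 5197 cells that share depth and library, and are given as a description.

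The binding proteins did not move as 1 group. Igfbp5, which encodes a matrix-associated binding protein made by myoblasts, had 83.4 CPM (files 82.2, 83.0, 85.0 and 83.6) in the lowest Myog bin and 92.4 in the next. It then dropped to 39.1 CPM in the third bin and 15.1 (files 13.6, 14.9, 15.5 and 16.5) in the highest. The files of the outer bins lay far apart, and the log2 ratio was -2.39 (-2.60 to -2.18), lower than for all but 5.48% of genes. The share of thinned cells with Igfbp5 went from 21.7% to 4.40%. Igfbp7 had 166 CPM (files 169, 164, 164 and 167) in the lowest bin, 104 and 57.8 in the middle bins and 42.0 (files 42.3, 43.2, 41.6 and 40.8) in the highest. Its decline was already present between the lowest bins, unlike that of Igfbp5, and the log2 ratio of the outer bins was -1.96 (-2.09 to -1.82). Igfbp7 overlaps Polr2b, an RNA polymerase subunit gene on the other strand, which had 50.4 CPM in the lowest and 37.2 CPM in the highest bin.

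Igfbp3, which encodes the main carrier of IGFs in blood, peaked in between. It had 28.2 CPM in the lowest Myog bin (files 27.3 to 28.8), 53.3 in the second (files 51.2 to 55.6), 42.3 in the third and 18.3 in the highest (files 17.8 to 18.7). The intervals of these 4 bins do not overlap. The contrast of the outer bins, with a log2 ratio of -0.60, misses that peak. Igfbp4 had 6.34, 7.25, 7.72 and 13.6 CPM over the bins, with a log2 ratio of 0.99 (0.69 to 1.29) just short of the threshold, and 1.39 under median-ratio scaling. Igfbp2 had 2.66 to 6.37 CPM, and its log2 ratio of -0.50 (-0.93 to -0.02) was not past the threshold.

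Markers of muscle and of other cell types were read in the same bins. The 7 markers of muscle stem or progenitor cells summed to 360.2 to 373.9 CPM per file in the lowest and 82.7 to 88.4 in the highest Myog bin. The 12 myocyte markers, Myog among them, summed to 1241 to 1259 CPM in the lowest and 38495 to 38685 in the highest bin. The 7 fibroblast markers summed to 220.4 to 223.5 CPM per file in the lowest and 44.4 to 46.9 in the highest bin. The fibroblast and progenitor sums thus both moved with Igfbp5, Igfbp7 and Igf1r. Almost all of the fibroblast sum came from Col3a1 (111 CPM over all cells) and Ly6a (29.6 CPM). The defining markers Pdgfra, Dcn and Lum were at 0.499, 0.327 and 0.0115 CPM. The 4 endothelial markers summed to at most 2.66 CPM and the 4 immune markers to at most 1.49 CPM per file in either bin. The 5 pericyte or smooth muscle markers summed to 3267 to 3307 CPM per file in the highest and 540.3 to 550.4 in the lowest bin. That sum was led by Acta2 at 1425 CPM over all cells, with Notch3 at 50.3, Rgs5 at 5.25, Pdgfrb at 4.59 and Myh11 at 0.302 CPM. Of these 5 markers, 1 was higher and 3 were lower past the threshold, where 8.32% of all genes were higher and 26.5% lower. Malat1-poor cells (under 1000 CPM of the nuclear RNA Malat1) were 10.7% of the lowest and 6.15% of the highest bin. The part of these values in the results was not tested.

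Later differentiation was followed by the summed CPM of Acta1 and Myh3, the genes of skeletal actin and embryonic myosin heavy chain. Cells of at least 10000 CPM (476 cells) were set against cells under 100 CPM (1970 cells). Igf2 and Igf2r were higher and Igf1r, Igfbp2, Igfbp3, Igfbp5 and Igfbp7 lower, that is 2 and 5 of 10 members, where 8.39% of 11872 genes were higher and 31.1% lower. The median log2 ratio was -0.61 over the members and -0.55 over all genes, and median-ratio scaling moved the latter to -0.01, with 1698 genes higher and 2164 lower against 996 and 3690 on the CPM scale. Under that scaling 3 members were higher and 4 lower. The contrasts share part of their cells and are not independent of each other.

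The members nevertheless did not all end where the Myog bins left them. Igf2 was at 450.4 CPM (files 456, 439, 461 and 446) in the cells richest in Acta1 and Myh3 and at 209 (files 206, 210, 208 and 212) in the poorest, with a log2 ratio of 1.10 (1.04 to 1.17). Igf2r was at 144 CPM against 67.8, with a log2 ratio of 1.08 (0.96 to 1.19). With CPM averaged over cells these ratios were 0.86 and 0.99, short of the threshold. Igf1r was at 50.6 CPM (files 50.8, 49.5, 50.5 and 51.6) against 178 (files 181, 181, 173 and 178), with a log2 ratio of -1.80 (-1.96 to -1.64). Igfbp3, short of the threshold by Myog, was at 9.13 CPM (files 8.647 to 9.504) against 36.6 (files 36.0 to 37.1), a log2 ratio of -1.89 (-2.25 to -1.53). Igfbp5 was at 10.9 against 84.5 CPM (log2 ratio -2.85, interval -3.18 to -2.52) and Igfbp7 at 34.6 against 147 (log2 ratio -2.06, interval -2.25 to -1.86). Igfbp2 rested on 10 UMIs per file in the high bin, at 1.58 against 4.68 CPM. Its log2 ratio of -1.17 became -0.98 without replicate 2, -0.74 under median-ratio scaling and -0.65 with bin edges of 5000 and 50 CPM, each short of the threshold. Igf1 at 18.1 against 12.4 CPM, H19 at 1803 against 1541 and Igfbp4 at 5.75 against 6.03 had log2 ratios of 0.52, 0.23 and -0.06, and under median-ratio scaling Igf1 passed the threshold at 1.07 and Igfbp4 turned to 0.44.

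**Figure D2:**
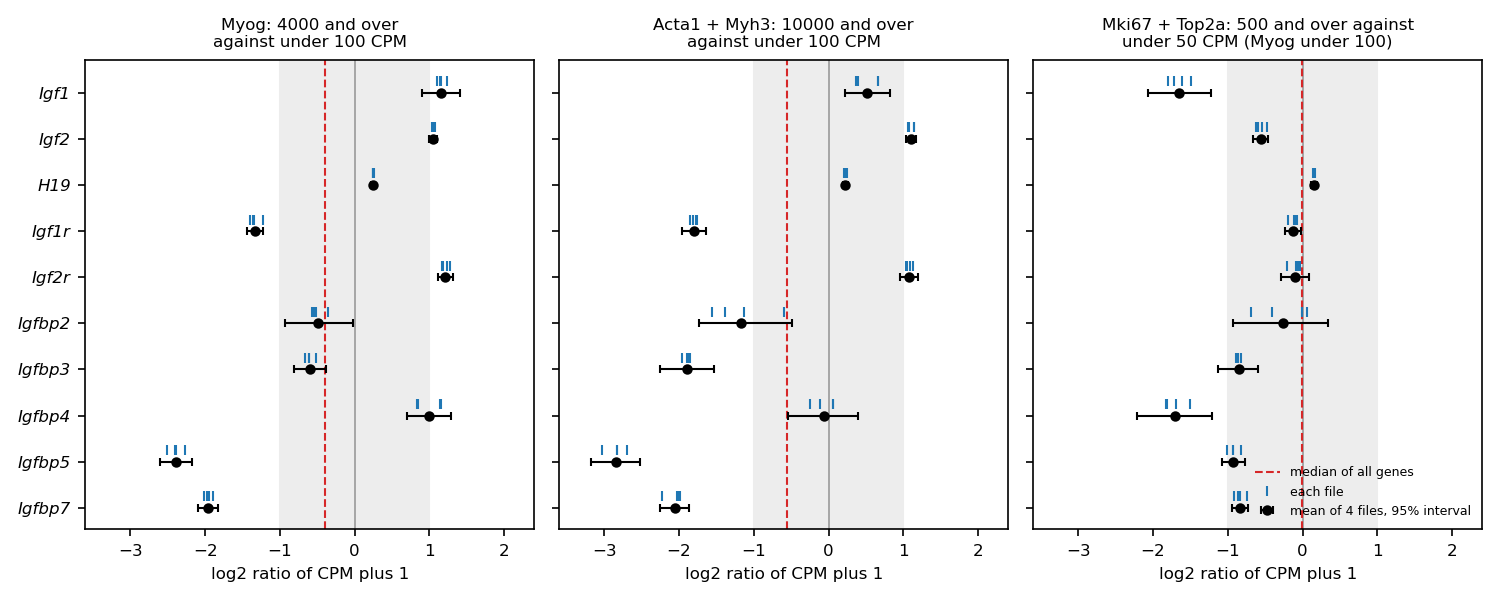
Log2 ratios of CPM plus 1 for the 10 genes in the 3 contrasts. Black points are means of the 4 files with 95% intervals for counting error, blue ticks are single files, the grey band is the range under the threshold and the red line the median of all genes. Igfbp5 and Igfbp7 lie at -2.39 and -1.96 in the Myog contrast, and Igf1 and Igfbp4 lie below the band in the proliferation contrast only.

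Proliferation was read from the summed CPM of Mki67 and Top2a, 2 genes of dividing cells. Cells of at least 500 CPM made up 37.3% of the lowest Myog bin and 3.03% of the highest, so the contrast was made among cells with Myog under 100 CPM: 699 cells of at least 500 CPM against 557 cells under 50 CPM. Here 0 members were higher and 2, Igf1 and Igfbp4, were lower, where 6.64% of 10784 genes were higher and 2.73% lower. The median log2 ratio was -0.70 over the members and -0.01 over all genes. Igf1 had 5.92 CPM (files 5.82, 6.45, 5.82 and 5.61) in dividing cells and 20.8 (files 21.4, 19.9, 19.9 and 21.9) in cells with little Mki67 and Top2a. Its files did not overlap, and the log2 ratio was -1.65 (-2.07 to -1.22), lower than for all but 0.427% of genes. Igfbp4, whose product mainly restrains IGF action, had 3.71 CPM (files 3.78, 3.85, 2.96 and 4.23) against 14.3 (files 15.9, 14.7, 12.9 and 13.9), a log2 ratio of -1.71 (-2.21 to -1.21), on 37.3 and 74 UMIs per file. Igfbp5 at 70.7 against 135 CPM, Igfbp3 at 22.5 against 41.5 and Igfbp7 at 144 against 258 had log2 ratios of -0.92, -0.86 and -0.84, close to the threshold. Igfbp5 passed it at -1.06 without replicate 2, and Igfbp3 at -1.03 without replicate 3, when the bins were also drawn from the other files. Igf2 was at 188 against 277 CPM (log2 ratio -0.56), H19 at 1608 against 1448 (0.15), Igf1r at 194 against 212 (-0.12), Igf2r at 63.5 against 68.1 (-0.10) and Igfbp2 at 3.64 against 4.50 (-0.26).

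Because dividing cells were rarer at high Myog, the Myog contrast was repeated within the cells under 50 CPM of Mki67 and Top2a, 944 Myog-rich and 557 Myog-poor. Within them, Igf1 was level, at 21.8 CPM in Myog-rich and 20.8 in Myog-poor cells, a log2 ratio of 0.07 (files -0.02 to 0.16). In the other cells Igf1 was higher with Myog: 15.5 against 4.43 CPM at 50 to 500 CPM of Mki67 and Top2a, and 17.03 against 5.92 at 500 CPM and over (log2 ratio 1.30, on 7.5 UMIs per file in 33 Myog-rich cells). Igf2 kept its direction at 405 against 277 CPM, a log2 ratio of 0.55 (files 0.50 to 0.61), short of the threshold. Igf2r stayed past it at 148 against 68.1 CPM, a log2 ratio of 1.12. Igfbp4 was level at 13.3 against 14.3 CPM, but at 21.1 against 3.71 CPM in cells of at least 500 CPM (log2 ratio 2.24, on 9.25 UMIs per file in the Myog-rich cells). The lower members were further apart than before: Igfbp5 had 13.5 against 135 CPM (log2 ratio -3.23), Igfbp7 had 42.4 against 258 (-2.58), Igf1r had 68.9 against 212 (-1.60) and Igfbp3 had 18.0 against 41.5 (-1.16). H19 had a ratio of 0.26, as over all cells.

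**Figure D3:**
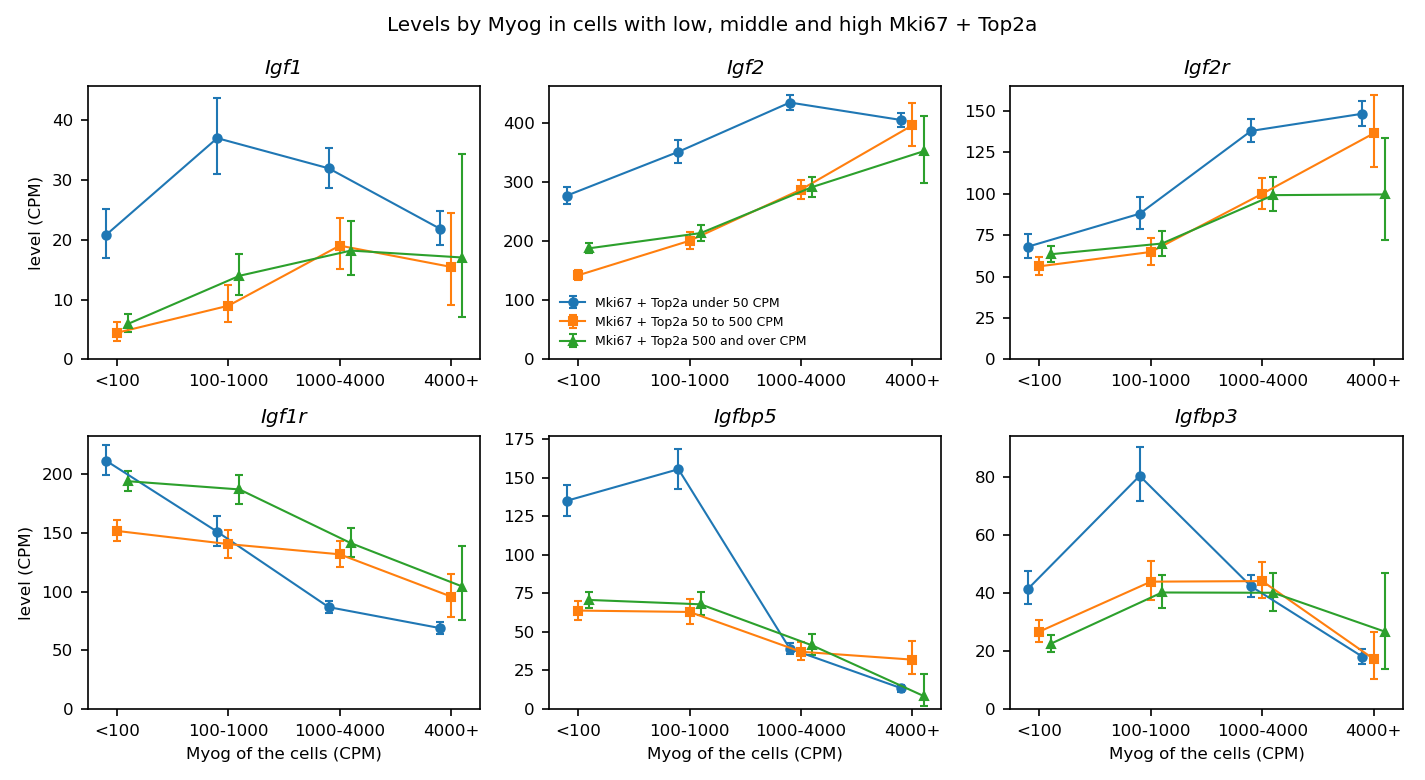
Levels of 6 members (CPM, vertical axes from 0) by Myog bin in cells with low, middle and high Mki67 plus Top2a. Bars are 95% Poisson intervals for counting error, and the group of high Myog and high Mki67 plus Top2a holds 33 cells. Igf1 lies at 20.8 CPM against 4.43 and 5.92 among Myog-poor cells, and Igfbp5 at 135 CPM against 63.8 and 70.7.

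The crossed bins located the highest values. Among cells with little Mki67 and Top2a, Igf1 was at 20.8, 37.0, 32.0 and 21.8 CPM over the Myog bins, Igfbp3 at 41.5, 80.4, 42.3 and 18.0, and Igfbp5 at 135, 155, 39.1 and 13.5. Igfbp3 was highest at a Myog of 100 to 1000 CPM, with an interval apart from the other bins. For Igf1 the intervals of the middle bins overlap (31.0 to 43.7 and 28.7 to 35.4), as do those of the lower bins for Igfbp5 (125 to 145 and 143 to 169), so the place of their maximum is not settled. Igf2 was highest at 434 CPM (422 to 446), at a Myog of 1000 to 4000 CPM. Among cells of at least 500 CPM of Mki67 and Top2a, Igf1 was at 5.92, 14.0, 18.2 and 17.03 CPM over the Myog bins, and Igfbp3 was between 22.5 and 40.2.

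The wider IGF pathway was read from a list of 51 genes, all in the files, of which 40 had 50 UMIs in the Myog contrast. Of these 3 were higher and 11 lower, shares close to the 8.32% and 26.5% of all genes, with a median log2 ratio of -0.41 beside -0.40 for all genes, and median-ratio scaling gave 8 and 8. The higher genes were Trim63 (log2 ratio 4.84), a muscle ubiquitin ligase that IGF signalling represses, Akt2 (1.999), a kinase below the receptor, and Rps6kb1 (1.09), a kinase downstream of mTOR. Trim63 had 56.8 CPM in Myog-rich and 1.03 in Myog-poor cells, and Akt2 had 164 and 40.4. Among the lower genes were Grb14 (-2.89), an adaptor that inhibits insulin receptor signalling, Irs2 (-2.17), a receptor substrate, and Socs3 (-1.89), a feedback inhibitor. Stc1 (-1.85), a stanniocalcin, and Igfbp6 (-1.76), a binding protein with preference for IGF2, were lower too.

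In the contrast by Acta1 and Myh3, 4 of the 40 listed genes were higher and 12 lower (8 and 9 under median-ratio scaling), beside 8.39% and 31.1% of all genes. The list's median was -0.54 beside -0.55. The higher genes were Trim63 (5.04), Stc2 (1.77), Akt2 (1.75) and Pdk1 (1.27). Pdk1 is the mouse symbol of a pyruvate dehydrogenase kinase, a metabolic enzyme. The kinase of IGF signalling with a similar name, Pdpk1, was listed separately and had 0.31, short of the threshold. Among the lower were Grb14 (-3.11), Htra1 (-2.13), a secreted protease, and Gab1 (-2.04), an adaptor. Stc1 had 0 UMIs in the high bin in every file, which allows up to 0.475 CPM (3 counts per file), so that at 2.93 CPM it was at least 6.16-fold higher in the low bin. In the proliferation contrast, where 6.64% of all genes were higher and 2.73% lower, 0 of 39 were higher and 3 lower in dividing cells: Fbxo32 (-2.42), the atrogin-1 gene that FOXO factors activate, Pik3r3 (-1.56) and Htra1 (-1.31). Their list had a median of -0.18 beside -0.01.

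Since Igf2, H19 and Igf2r are imprinted, other imprinted genes were read the same way. Of 17 listed names 16 were in the files, and 13 had 50 UMIs. In the Myog contrast 3 were higher, Cdkn1c (5.32), Meg3 (3.75) and Kcnq1ot1 (1.05), and 6 lower, Peg10 (-2.06), Sgce (-1.94), Plagl1 (-1.58), Mest (-1.29), Slc38a4 (-1.29) and Ndn (-1.07). All genes had 8.32% higher and 26.5% lower. The list's median was -0.41 beside -0.40 for all genes, and median-ratio scaling gave 3 and 3. By Acta1 and Myh3, 2 were higher, Meg3 (4.91) and Cdkn1c (3.20), and 7 lower, led by Mest (-3.62, at 25.3 against 322 CPM), with 3 and 3 under median-ratio scaling, beside 8.39% and 31.1% of all genes. In the proliferation contrast 0 of 13 passed the threshold in either direction. With 13 genes these shares are coarse, and nothing particular to imprinted genes is read from them.

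To see which genes had courses like those of the members, the 3 sets of bins were crossed into 24 groups of at least 50 cells (5247 cells in all), and log2 levels were correlated over the groups for 13133 genes. Over these groups Igfbp5 ranged from 3.77 to 181 CPM and H19 only from 1228 to 2261. Nearest to Igf2 were C1qtnf3 (r = 0.96), Dlg2 (0.96) and Neb (0.96), the last encoding the thin-filament protein nebulin. Nearest to Igf2r were Abcc9, Hipk3 and Mef2d (each 0.97), and nearest to Igf1r were B4galt1 (0.98), Ski (0.97) and Soat1 (0.97). Igfbp5 was closest to Ubl3, Ebpl and Ptprd (0.95 to 0.96), Igfbp7 to S100a11, Capg and Tspo (0.96 to 0.97) and Igfbp3 to Ralgds, Lpl and Hs2st1 (0.95 to 0.96). Igf1 had Dop1b (0.92), H19 had Zfp568 (0.94) and Igfbp4 had Oaz2 (0.88) as their nearest genes. Among the members themselves, Igf2 and Igf2r had r = 0.92, Igfbp5 and Igfbp7 0.84, Igf1r and Igfbp5 0.83, Igf2 and H19 0.59, and Igf1r and Igf2r -0.72. The groups share the genes that formed them and come from 1 sample, so these coefficients describe the groups and carry no test.

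Finally, Igf2 was compared with H19 cell by cell. The genes lie 72623 bases apart (GENCODE M21 on GRCm38, chromosome 7, minus strand, H19 at 142575529 to 142578143 and Igf2 at 142650766 to 142666816). At 5000 UMIs per cell, 64.4% (63.1% to 65.7%) of about 5091 cells with an H19 UMI also had an Igf2 UMI, against 25.7% (17.7% to 35.1%) of about 106 cells without H19. The difference was 38.7 points (29.3 to 46.8), and the 4 files gave 36.8 to 42.1. Of the cells without H19, 87.5 on average lay in the lowest Myog bin, where the difference was 30.9 points. In the bins above 1000 CPM of Myog, with 4 and 8.25 such cells, files fell on both sides of 0.

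As nearly every cell had some H19, cells were also ranked by H19 in replicates 1 and 2 and cut into 4 equal H19 groups, with Igf2 read in replicates 3 and 4, a split chosen after seeing the data. Igf2 was at 192 CPM (181 to 203) in the group with least H19, then 269, 341 and 441 CPM (425 to 457) in the group with most. Replicate 3 alone gave 195 and 447 CPM in the outer groups, and replicate 4 alone gave 189 and 435. Igf2 was found in 47.8%, 62.01%, 67.8% and 76.2% of cells. Over the same groups H19 itself went from 862 to 2643 CPM, so there were 0.22 Igf2 UMIs per H19 UMI in the first and 0.17 in the last. The climb was present in each Myog bin: from 95.2 to 358 CPM under 100 CPM of Myog, from 184 to 410 at 100 to 1000, from 278 to 503 at 1000 to 4000, and from 318 to 500 at 4000 and over. It was also present among cells with little Mki67 and Top2a, from 268 to 537 CPM.

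**Figure D4:**
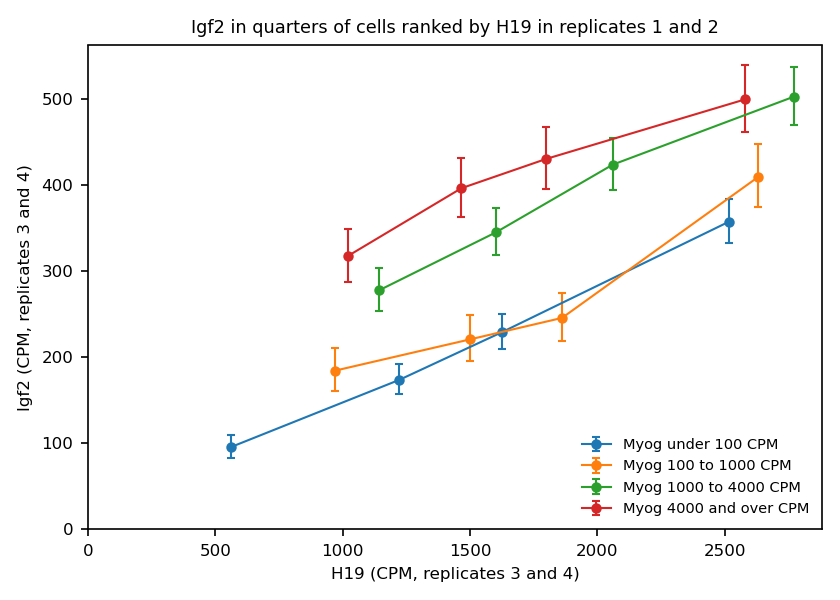
Igf2 against H19 (both CPM, replicates 3 and 4, axes from 0) in 4 equal groups of cells ranked by H19 in replicates 1 and 2, drawn for each Myog bin with 95% Poisson intervals. Igf2 climbs with H19 in all 4 bins, from 95.2 to 358 CPM in the lowest and from 318 to 500 CPM in the highest.

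With H19 of 1 file set against other genes of another file, Igf2 had the highest mean r of 8811 genes, at 0.27, followed by Ttn (0.27) and Neb (0.26). Their order is not settled, as the value for Igf2 alone ranged from 0.255 to 0.282 over pairs of files. Seen from Igf2, H19 came 19th, behind Neb (0.39), Ttn (0.36) and Dlg2 (0.35) at the top. H19 and Igf2 reached 0.69 and 0.55 with themselves between files. Within the Myog bins the coefficient for the pair was 0.31, 0.22, 0.22 and 0.14 from the lowest to the highest. These are descriptions over 5197 cells at equal depth, where cells share their library and the files come from the same cells.

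The neighbourhood of H19 was read in the same H19 groups, also after seeing the data. Of 13 annotated genes in the files within 200 kb, 8 beside H19 had 500 UMIs. Among cells under 100 CPM of Myog, the group with most H19 exceeded the group with least by a log2 ratio of at least 1 for 3 of the 8, where 1.82% of 8811 genes did: Igf2 (1.90), Nctc1 (1.89) and Tnnt3 (1.59). Nctc1, a noncoding RNA gene, rested on 5 and 24.5 UMIs per file, at 2.27 against 11.2 CPM. Tnnt3, which encodes fast troponin T, had 141 against 428 CPM. Prr33 (0.87, on 4.5 and 10 UMIs), Lsp1 (0.77) and Tnni2 (0.72) had smaller ratios, and Ctsd (-0.04) and Mrpl23 (-0.12), a mitochondrial ribosomal protein gene between Tnnt3 and H19, were level. By the same measure Igf2 ranked 5th and Nctc1 6th of 8811 genes. The 4 genes above them were Sln (2.54), Car3 (2.22), Capn6 (2.05) and Tceal5 (1.96), none of them within 200 kb, so high ratios were not limited to the neighbourhood. Sln rested on 2.5 and 25 UMIs per file and Tceal5 on 2.5 and 16. At 100 to 1000 CPM of Myog the ratios were 1.15 for Igf2, 0.39 for Tnnt3 and 0.005 for Nctc1. In the bin of 1000 to 4000 CPM they were 0.86, 0.09 and -0.21. Among cells of at least 4000 CPM of Myog, where 2.08% of genes were higher, 0 of the 8 passed: Igf2 had 0.65, Tnnt3 -0.06 and Nctc1 -0.65. Over all cells, where 0.375% were higher, Igf2 (1.20) was the only one of the 8 past the threshold. Igf1, on chromosome 10, ranked 3rd of 8811 genes there, at 10.6 against 29.3 CPM (log2 ratio 1.38).

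**Figure D5:**
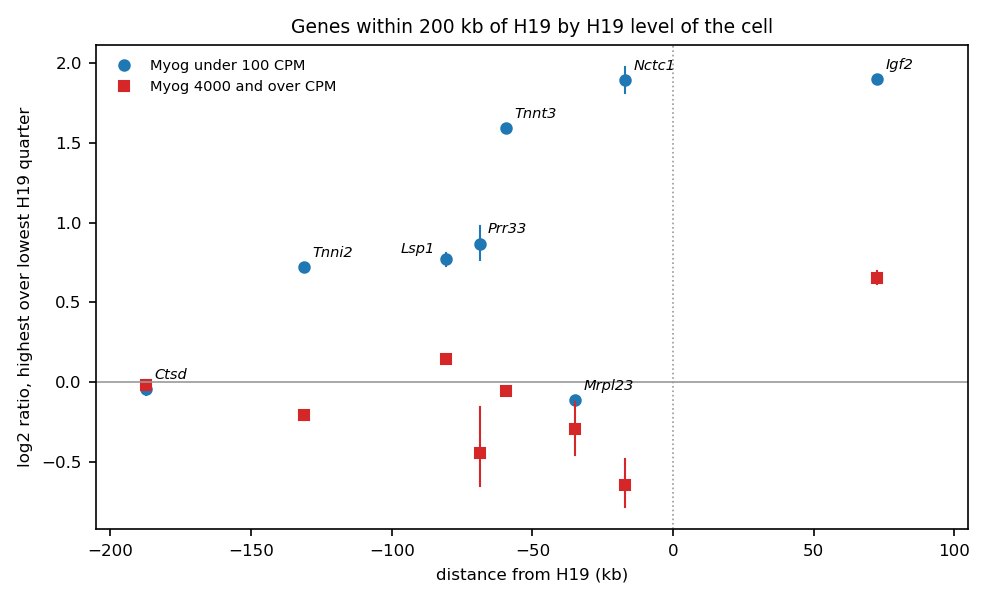
Log2 ratio of CPM plus 1 between the H19 groups of cells with most and least H19 (vertical) for 8 genes within 200 kb, by distance from H19 in kb (horizontal, negative towards lower coordinates). Circles are cells under 100 CPM and squares cells of at least 4000 CPM of Myog, and vertical lines join replicates 3 and 4. Igf2, Nctc1 and Tnnt3 lie at 1.90, 1.89 and 1.59 in Myog-poor cells and at 0.65, -0.65 and -0.06 in Myog-rich cells.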

How the data were processed

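Single-cell libraries of 1 group of cultured, MyoD-tdTomato-high mouse muscle stem cells were analysed as 4 files. Each deposited matrix holds unnormalised UMI counts for every gene in every barcode, made by the authors with Cell Ranger, version 7.1.0 per the file headers and 3.1.0 per the submitters' processing notes. Those notes list mm10 and GRCm39 without a role, and of 32285 gene identifiers 32158 (99.6%) matched GENCODE M21, whose GRCm38 coordinates are given. Cell calling, strand and intronic counting are not given in the sources used here.

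The members and gene lists were chosen with earlier results of these data known. Counts were summed per file and bin with numpy 2.4.6 and pandas 2.3.3 and scaled to CPM. Log2 ratios of CPM plus 1 were averaged over files, for genes with at least 50 UMIs in the mean file. Intervals (Poisson, Clopper-Pearson, conditional binomial) came from scipy 1.17.1. Shares used cells thinned to 5000 UMIs, which left out 284 of 5481 cells. No doublet caller was run, and removal of the 5% of cells with most UMIs was an alternative. The summing and the ratio were tested on simulated data. Of the lists, genes past the threshold were named, at most the 6 largest per direction, and some of these are not reported here. For members with 500 UMIs, the 3 genes of highest r over groups were computed. Alternatives changed the cell filter, thinning depth, bin edges, scaling, pseudocount (0.1), UMI minimum and files used.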

Additional observations from a re-analysis of the deposited data

Results flagged for a closer look

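The share of thinned cells with an Igf2r UMI in replicate 1, 35.87%, stood apart from the other 3 files, whose values lay between 34.96% and 35.10% (mean of all 4, 35.25%). Of 51 values compared over the files this was the only such case, and chance alone flags about 1 in 20.

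Igfbp3 had Myog log2 ratios of opposite sign in cells with little and with much Mki67 plus Top2a: -1.16 (18.0 against 41.5 CPM) in the former and 0.235 (26.7 against 22.5 CPM) in the latter, with the same sign in every file. The Myog-rich dividing group held 33 cells and 11.75 Igfbp3 UMIs per file, and the difference between the ratios was not tested.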

How the results depend on the processing

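Igfbp5 and Igfbp7 stayed lower past the threshold under all settings run in the Myog contrast (16) and the contrast by Acta1 and Myh3 (14), as did Igf1r and Igfbp3 in the latter and Igf1 and Igfbp4 in the proliferation contrast (15). No called log2 ratio of a member changed sign under any setting. With CPM averaged over cells, the number of members higher went from 3 to 1 in the Myog contrast and from 2 to 0 in the contrast by Acta1 and Myh3, where 7.996% and 8.28% of all genes were higher. It was 1 in the Myog contrast both within cells under 50 CPM and within cells of at least 500 CPM of Mki67 plus Top2a (the latter chosen after seeing the data), and 1 by Acta1 and Myh3 with edges of 5000 and 50 CPM, where 8.78%, 5.42% and 9.20% of all genes were higher. In the 33 Myog-rich cells of at least 500 CPM, the log2 ratios of Igf2, Igf1r and Igf2r were 0.90, -0.90 and 0.63, short of the threshold, while Igf1 at 1.30 was past it, and Igfbp4 at 2.24 had under 50 UMIs and was not counted. The difference in Igf2 detection by H19 was 16.9 points at 2000 UMIs per cell, 51.4 at 8000 and 20.9 averaged within Myog bins. The count of genes higher in the Myog contrast was 1530 with median-ratio factors and 540 within dividing cells, against 1004. By Acta1 and Myh3, median-ratio factors gave 1698 higher and 2164 lower, against 996 and 3690. In the proliferation contrast over all cells, whatever their Myog, 1327 genes were higher and 739 lower, against 716 and 294. Of 450 member ratios recomputed, 373 moved by less than the spread between files and counting error and 77 by more. Igfbp2 and Igfbp4, with 289 and 542 UMIs per file, and the cells without H19, about 106, are where depth limits the values most. With 1 sample there is no biological error, and bins drawn from the same counts cannot separate cell state from sampling. With bins from replicates 1 and 2 and values from replicates 3 and 4, the members called in the Myog contrast stayed past the threshold. Igf1, Igf2 and Igf2r then had log2 ratios of 1.145, 1.05 and 1.145, and Igf1r, Igfbp5 and Igfbp7 had -1.288, -2.48 and -1.907. No paired analysis was possible because the 4 files belong to 1 group and hold the same cells.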

Other observations

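The barcodes left out and the Malat1-poor cells differed in their IGF genes, with mitochondrial UMIs taken out of the total. In the 463 barcodes left out, Igf1r stood at 486 CPM (428 to 548) and Igf2r at 304 CPM (260 to 355), against 143 and 101 CPM in kept cells. The ligands were higher there too, Igf1 at 46.1 against 18.9 CPM and Igf2 at 469 against 306, while H19 was at 1466 against 1764 CPM. Malat1 itself was at 35237 against 8769 CPM there. In the 467 kept cells under 1000 CPM of Malat1, the receptors and ligands were lower instead. Igf1r was at 41.9 CPM against 150 in the other kept cells, Igf2r at 33.8 against 105.4, Igf2 at 187 against 314 and Igf1 at 7.80 against 19.65. H19, at 1676 against 1770 CPM, and Igfbp3, at 35.6 against 36.7, were close to level, and Igfbp7 was higher at 132 against 102. Leaving out the Malat1-poor cells changed no call of a member other than that of Igfbp4 in the Myog contrast, which passed the threshold at 1.06.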
